A study of Mus musculus with 21 samples.

Results

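The 9 genes described here encode the core of Polycomb repressive complex 2 (PRC2) and 2 shared subunits of the Trithorax-type histone methyltransferases. They were taken by symbol from the deposited expression tables: Ezh1, Ezh2, Eed, Suz12, Jarid2, Rbbp4, Rbbp7, Wdr5 and Ash2l, among 42746 named entries in each of 2 tables and 40725 in the third. All 9 were listed in all 3 tables, and all 9 passed the filter on low values, a mean of at least 1 FPKM over the groups compared, in every comparison. FPKM (fragments per kilobase of transcript, scaled to the number of mapped fragments) is corrected for transcript length, so levels can be compared between genes within a table.

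The series holds 21 RNA-seq libraries from mice of 3 strains in which a long intergenic noncoding RNA (lincRNA) gene was replaced by a lacZ cassette, with wild-type controls. Whole brains at E18.5 came from linc-Sox2+/+ and linc-Sox2-/- embryos, a lincRNA the study calls Peril. Lungs at E14.5 came from linc-Foxf1a+/+ and linc-Foxf1a-/- embryos, a lincRNA the study calls Fendrr. Tissue from the linc-Brn1b strain was telencephalon at the embryonic ages of E13.5 and E15.5, and the whole brain at P7, from linc-Brn1b+/+ and linc-Brn1b-/- animals. Each of the 10 groups had 2 libraries by its labels, except the linc-Brn1b-/- group at E15.5, which had 3. The study's text gives 2 per group, and which of the 3 libraries entered the deposited E15.5 value is not known. The deletions were made in hybrid embryonic stem cells from a cross of 129S6S v/Ev with C57BL/6N, and the mice were bred back to C57BL/6J in a single cross. The deletion is in the germ line, so every cell of a knockout lacks the deleted part of the lincRNA gene and carries the lacZ reporter that the wild types lack. In the Fendrr strain, by the paper's account, the promoter and the first exon were left in place. The authors deposited 1 FPKM value per group, not per library, so the values used here allow no spread between replicates, standard error or test. The authors' own test columns were not used, and the sequencing depth behind each value is unknown.

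PRC2 places methyl groups on lysine 27 of histone H3, a mark of repressed developmental genes. EZH2 and EZH1 are alternative catalytic subunits, EED reads the mark and is needed for catalysis, SUZ12 is the scaffold, RBBP4 and RBBP7 are histone-binding WD40 proteins, and JARID2 helps to bring the complex to chromatin. The Trithorax-type COMPASS complexes act in opposition by methylating lysine 4 of histone H3, and WDR5 and ASH2L are subunits common to them. In the developing nervous system EZH2 is known for its high level in dividing progenitors. Several lincRNAs have been described as binding partners of these complexes, so the genotype comparison asks whether the genes of the complexes themselves differed in level once a lincRNA was deleted.

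The promoters of the paralog pairs are shown because their members had unlike patterns across ages. RefSeq promoter sequences (GRCm38.p6, 250 bases before to 50 bases after the start) were matched by symbol for 8 of the 9 genes, with 9 promoters in all. Capitals mark exact matches, on either strand, to TTTCGCGC or TTTGGCGC (E2F words), CCAAT (the NF-Y word) or GGGCGG (the Sp1 word). The windows were chr6:47594981-47595280 (minus strand) for Ezh2, chr11:101226414-101226713 (minus strand) for Ezh1, chr4:129335321-129335620 (minus strand) for Rbbp4 and chrX:162760122-162760421 (plus strand) for Rbbp7.
Ezh2: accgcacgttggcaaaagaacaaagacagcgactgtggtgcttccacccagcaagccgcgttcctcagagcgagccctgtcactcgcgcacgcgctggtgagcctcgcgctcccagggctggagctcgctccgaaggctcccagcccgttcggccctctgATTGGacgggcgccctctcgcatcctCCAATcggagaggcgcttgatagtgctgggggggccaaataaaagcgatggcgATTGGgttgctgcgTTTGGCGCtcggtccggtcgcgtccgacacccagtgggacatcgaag
Ezh1: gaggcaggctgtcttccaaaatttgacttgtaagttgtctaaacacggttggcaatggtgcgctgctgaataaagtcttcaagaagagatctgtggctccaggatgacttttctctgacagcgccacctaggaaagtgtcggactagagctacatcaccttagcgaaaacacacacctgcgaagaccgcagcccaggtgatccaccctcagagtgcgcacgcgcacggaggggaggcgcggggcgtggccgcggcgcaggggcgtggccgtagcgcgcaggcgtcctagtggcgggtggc
Rbbp4: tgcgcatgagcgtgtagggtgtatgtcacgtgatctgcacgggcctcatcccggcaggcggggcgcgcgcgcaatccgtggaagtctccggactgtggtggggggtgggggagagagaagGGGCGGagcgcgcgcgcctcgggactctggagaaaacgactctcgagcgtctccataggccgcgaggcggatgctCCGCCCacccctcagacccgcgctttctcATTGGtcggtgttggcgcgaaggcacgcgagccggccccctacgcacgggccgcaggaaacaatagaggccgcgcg
Rbbp7: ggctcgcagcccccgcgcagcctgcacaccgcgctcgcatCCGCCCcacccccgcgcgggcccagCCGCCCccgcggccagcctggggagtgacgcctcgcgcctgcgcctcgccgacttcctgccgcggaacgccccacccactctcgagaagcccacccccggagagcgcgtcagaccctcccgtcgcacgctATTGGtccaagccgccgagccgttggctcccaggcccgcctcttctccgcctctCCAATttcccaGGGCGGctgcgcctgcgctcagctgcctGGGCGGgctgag

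The Ezh2 promoter held 1 TTTGGCGC, which begins at base 4 of the transcript, and 3 CCAAT words. The Ezh1 promoter held none of the 4 words. Of all 32851 promoters in the table, 0.514% held TTTGGCGC, 0.323% held TTTCGCGC, 37.4% held CCAAT and 35.7% held GGGCGG. Ezh2 was the only one of the 8 genes with an exact E2F word in this window, against 0.813% of all promoters with either word. Near matches to these words were not searched for, so other genes may hold E2F sites of another spelling. Rbbp4 had 1 CCAAT and 2 GGGCGG, and Rbbp7 had 2 CCAAT and 4 GGGCGG. Suz12 had 1 CCAAT and 3 GGGCGG, Eed had 1 CCAAT, and Wdr5 had 2 GGGCGG. Each of the 2 Jarid2 promoters held 1 CCAAT and 1 GGGCGG. These matches are letters in a window and were not tied to the levels by any test.

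In mm9, the build of the files, GENCODE places Ezh2 at chr6:47480273-47545340, Ezh1 at chr11:101052429-101087777, Rbbp4 at chr4:128984344-129012614 and Rbbp7 at chrX:159198334-159217024, all protein-coding. The other 5 are also protein-coding, with Eed at chr7:97103166-97129493, Suz12 at chr11:79806608-79847625, Jarid2 at chr13:44824843-45017012, Wdr5 at chr2:27370677-27392055 and Ash2l at chr8:26926663-26958166. The longest identical stretch between the transcripts of Ezh1 and Ezh2 was 17 bases, and between those of Rbbp4 and Rbbp7 it was 20 bases. No stretch as long as a read was shared by a transcript of these genes with that of another coding gene. Copies elsewhere in the genome, aligned over at least 300 bases at 90% identity or more, were found for 3 genes. Suz12 had 2 such copies (the longest aligned over 686 bases, the highest identity 96.1%), Rbbp4 had 1 (1935 bases, 90.5%) and Rbbp7 had 1 (1747 bases, 96.5%), so reads of these 3 genes may be split with a copy. Rbbp7 shared its locus in the tables with Txlng, at 5.26 to 11.3 FPKM, and Eed and Rbbp4 shared theirs with linc-Eed-AS and Sync, each under 1 FPKM in every group. Jarid2 shared its locus with linc-Jarid2-AS in the lung and E18.5 tables, also under 1 FPKM, so the values of these genes are uncertain to the extent that reads were divided between entries.

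One table entry went against the label of its strain. In the E18.5 brains, the table entry that overlaps the Peril deletion (linc-Atp11b-4) was at 0.01089 FPKM in the wild-type group and at 4.65 FPKM in the group labelled knockout. For that strain the text therefore speaks of libraries labelled knockout, and directions drawn from it rest on those labels. The study identified its mutants by PCR genotyping and also measured Peril by RT-PCR in E18.5 brains of both genotypes. Its labels therefore rest on more than genotyping. Whether this entry measures the Peril transcript was not tested. The Fendrr entry (linc-Cox4nb-4) was at 38.4 FPKM in wild-type lung and 0.045 FPKM in knockout lung. The linc-Brn1b entry was at 1.60, 2.498 and 0.799 FPKM in the wild types at E13.5, E15.5 and P7 and listed at 0 in each knockout. The 6 telencephalon markers summed to 413 to 484 FPKM in the embryonic telencephalon, to 146.2 and 153.0 FPKM in the E18.5 brain and to under 1 FPKM in lung, where 6 lung markers summed to 1027 and 1063 FPKM. All 4 Y-linked genes measured were at 2.07 FPKM or more in 5 of the 10 groups and at 0.01835 FPKM or less in the other 5. The high groups were wild type in lung and at E13.5, and the groups labelled knockout at E18.5, E15.5 and P7, so in all 5 comparisons genotype and the sex of the animals cannot be told apart. Xist, the RNA of the inactive X chromosome, was at 52.0 and 105.7 FPKM in wild-type and knockout lung, and at 92.5 FPKM in wild-type E18.5 brain against 47.9 FPKM in the libraries labelled knockout, so the groups with Y-linked signal in these 2 tables held Xist as well.

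Ezh2 and Rbbp4 led the levels in the E13.5 wild-type telencephalon, and the order was different at P7. Ezh2 was at 115.9 FPKM, Rbbp4 at 110.4, Rbbp7 at 81.8, Ash2l at 55.6, Suz12 at 49.7, Wdr5 at 30.0, Jarid2 at 25.8, Eed at 24.3 and Ezh1 at 4.51. The histone-binding and catalytic subunits thus stood above the rest, and the alternative catalytic subunit Ezh1 stood lowest. In the wild-type P7 brain Rbbp7 was highest at 75.4 FPKM, followed by Rbbp4 at 45.3, Ash2l at 26.4, Wdr5 at 19.5, Suz12 at 14.53, Jarid2 at 9.94, Ezh1 at 8.35, Eed at 6.07 and Ezh2 at 5.96. Ezh2 had moved from the highest to the lowest of the 9. With no spread, whether neighbours in either order differ cannot be said.

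**Figure D1:**
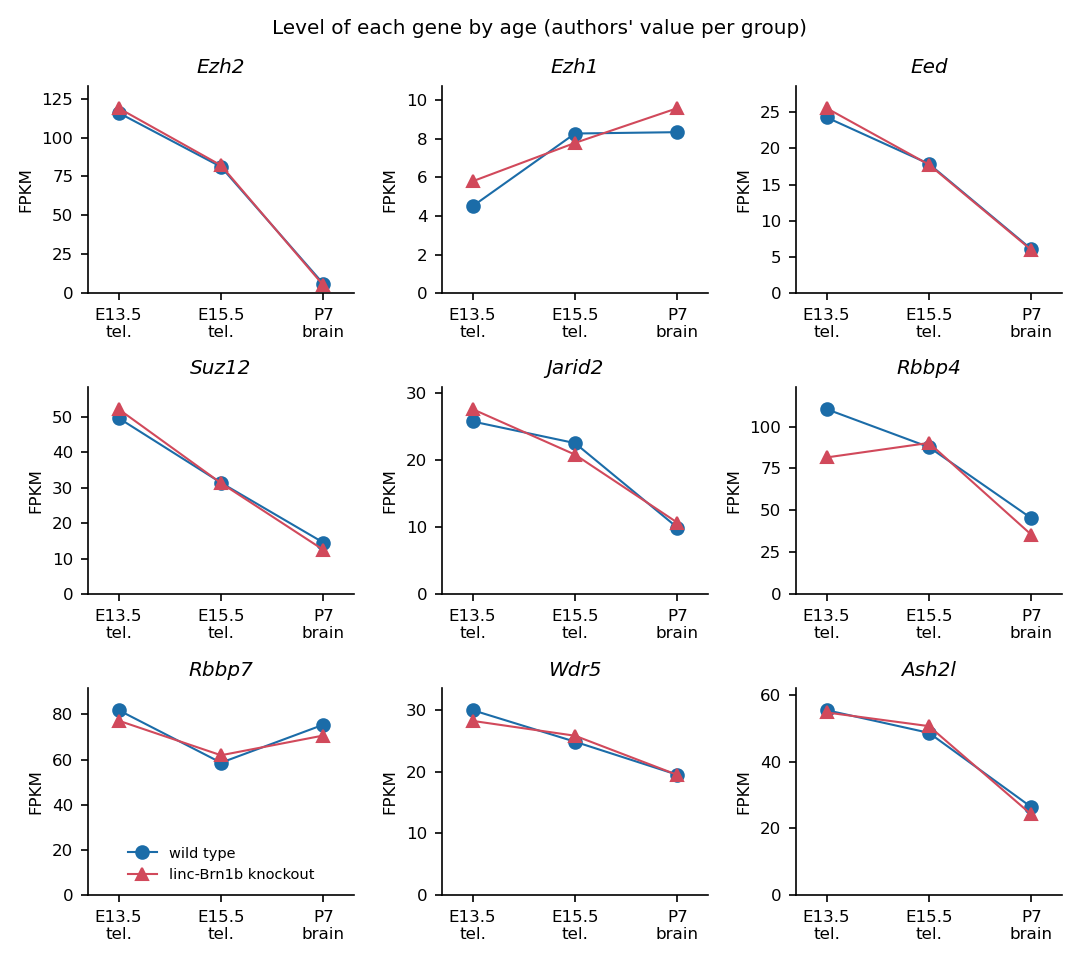
FPKM of each of the 9 genes (vertical axes from 0, a scale of its own for each gene) in the linc-Brn1b table at E13.5 and E15.5 (telencephalon, tel.) and P7 (whole brain). Circles are wild type, triangles linc-Brn1b knockout, 1 deposited value per group, and no error bars can be drawn. Ezh2 runs from 115.9 to 5.96 FPKM in wild type while Ezh1 runs from 4.51 to 8.35 FPKM, and the genotypes stand farthest apart for Rbbp4 at E13.5.

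The largest differences among these genes were between ages. Ezh2, the catalytic subunit, was at 115.9, 81.2 and 5.96 FPKM at E13.5, E15.5 and P7 in wild type and at 118.9, 82.1 and 5.02 FPKM in linc-Brn1b-/-. The E13.5 level was 19.5-fold the P7 level in wild type and 23.7-fold in the knockout, so the P7 brain held 5.14% and 4.22% of the E13.5 level. P7 was whole brain and E13.5 was telencephalon, so age and tissue cannot be told apart at this step, and in bulk tissue fewer cells of a type and less RNA per cell cannot be told apart either.

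Ezh1, the catalytic subunit of the same complex that is known from non-dividing tissues, ran the other way. It was at 4.51, 8.28 and 8.35 FPKM in wild type and at 5.80, 7.80 and 9.60 FPKM in the knockout. Its P7 level was 1.85-fold its E13.5 level in wild type and 1.65-fold in the knockout. In wild type nearly all of that lay between the embryonic ages, within 1 tissue. The Y-linked genes, however, were high at E13.5 and near 0 at E15.5 in wild type and the reverse in the knockout, so in this early step age and sex cannot be told apart in either genotype. In the knockout the value was higher at each age than at the one before.

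The partners of the catalytic subunits were lower at P7 than at E13.5 by smaller factors than Ezh2. Eed, the reader subunit, was at 24.3, 17.9 and 6.07 FPKM in wild type and 25.6, 17.8 and 5.96 FPKM in the knockout, 4.002-fold and 4.29-fold higher at E13.5 than at P7. Suz12, the scaffold, was at 49.7, 31.4 and 14.53 FPKM in wild type and 52.2, 31.3 and 12.5 FPKM in the knockout, a ratio of 3.42-fold and 4.18-fold. Eed and Suz12 are required by both forms of the complex, and their levels lay between those of Ezh2 and Ezh1 in the size of the age difference. Jarid2 was at 25.8, 22.6 and 9.94 FPKM in wild type and 27.6, 20.8 and 10.7 FPKM in the knockout, 2.59-fold higher at E13.5 in each.

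The histone-binding pair split. Rbbp4 was at 110.4, 87.7 and 45.3 FPKM in wild type and at 81.6, 90.2 and 35.4 FPKM in the knockout, with E13.5 over P7 at 2.44-fold and 2.302-fold. Rbbp7 was at 81.8, 58.6 and 75.4 FPKM in wild type and at 77.2, 61.9 and 70.6 FPKM in the knockout. Rbbp7 therefore had its lowest value at E15.5 in both genotypes, and its E13.5 and P7 levels differed by only 1.08-fold and 1.09-fold. Rbbp7 is on the X chromosome, and sex and age cannot be told apart between E13.5 and the later ages. Both proteins also serve in histone deacetylase and chromatin assembly complexes.

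The Trithorax pair was also lower at P7 than at E13.5. Ash2l was at 55.6, 48.7 and 26.4 FPKM in wild type and 54.9, 50.8 and 24.2 FPKM in the knockout, 2.10-fold and 2.27-fold higher at E13.5 than at P7. Wdr5, the subunit that docks the methyltransferase, was at 30.0, 24.9 and 19.5 FPKM in wild type and 28.3, 25.9 and 19.5 FPKM in the knockout, 1.54-fold and 1.45-fold higher at E13.5.

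The early step was set against all genes on the scale of log2(FPKM + 1). Differences are given as the later age minus the earlier. A gene is counted when it was past 1.5-fold, a difference of at least the log2 of 1.5, which rounds to 0.58. Between E13.5 and E15.5 in wild type, 1 of the 9 was higher (Ezh1, 0.75) where 8.67% of the 13537 genes that passed the filter were higher. In the same step 1 of the 9 was lower (Suz12, -0.64) where 8.06% of genes were lower. In the knockout none of the 9 was higher (Ezh1, 0.37), with 10.4% of 13568 genes higher, and 1 was lower (Suz12, -0.72), with 7.56% lower. These shares are near the background, and the counts are no result about the 9 genes. The median size of the 9 differences, without sign, was 0.423 in wild type and 0.371 in the knockout, beside 0.240 and 0.271 for all genes. Signed medians were -0.328 in wild type and -0.314 in the knockout, beside 0.010 and -0.030 for all genes. In wild type 8 of 9 differences were below 0, and in the knockout 7 of 9. The exceptions were Ezh1 in both genotypes and Rbbp4 in the knockout, at 0.14 against -0.33 in wild type. Whether the Rbbp4 step differs between genotypes was not tested.

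The late step was larger. Between E15.5 and P7, 6 of the 9 were lower by at least 1.5-fold in wild type, where 27.2% of 14151 genes were lower, and 6 of the 9 in the knockout, where 27.4% of 14108 genes were lower. None of the 9 was higher past 1.5-fold in either genotype, with 23.5% and 24.5% of genes higher. The 6 were the same in both genotypes: Ezh2, Eed, Suz12, Jarid2, Rbbp4 and Ash2l. Ezh2 had a difference of -3.56 in wild type and -3.79 in the knockout, Eed of -1.42 and -1.43, Suz12 of -1.06 and -1.26, Jarid2 of -1.11 and -0.90, Rbbp4 of -0.94 and -1.32, and Ash2l of -0.86 and -1.04. The 3 that stayed within 1.5-fold were Ezh1 at 0.01 and 0.27, Rbbp7 at 0.36 and 0.19 and Wdr5 at -0.34 and -0.39. The medians of the 9 were -0.939 and -1.038. The median of all genes was itself -0.100 and -0.098, and relative to it the wild-type median of the 9 was -0.839. Each step uses the E15.5 groups, so the early and late differences of a gene are not independent.

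The ratio within each of the 2 paralog pairs was lower at P7 than at the embryonic ages. Ezh2 was 25.7 times Ezh1 at E13.5 in wild type and 20.5 times in the knockout, 9.80 and 10.5 times at E15.5, and 0.713 and 0.523 times at P7. Ezh1 thus made up 3.75% and 4.65% of the summed FPKM of the pair at E13.5 and 58.4% and 65.7% at P7. The summed level of the pair was 120.5 and 124.7 FPKM at E13.5, 89.5 and 89.9 at E15.5, and 14.3 and 14.6 FPKM at P7. Between E15.5 and P7, where the ratio passed below 1, Ezh1 was nearly level in wild type (8.28 and 8.35 FPKM) and Ezh2 was lower, so the sum was lower too. Rbbp4 was 1.35 times Rbbp7 at E13.5 in wild type and 1.06 times in the knockout, 1.498 and 1.46 times at E15.5, and 0.601 and 0.502 times at P7.

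The other 2 tables were scaled separately, so their ratios within a group can be set beside these but their levels are not on a shared scale. In the E18.5 brain Ezh2 was 2.07 times Ezh1 in wild type and 1.90 times in the libraries labelled knockout, and in the E14.5 lung 6.68 and 8.46 times. Rbbp4 was 0.916 and 0.850 times Rbbp7 at E18.5, and 0.566 and 0.561 times in lung. Rbbp7 was the highest of the 9 genes in both tables, as at P7, at 181.2 and 194.0 FPKM in wild-type and knockout lung and at 66.6 and 64.2 FPKM at E18.5. Suz12 was above Eed in every one of the 10 groups, by 1.13-fold to 2.39-fold.

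**Figure D2:**
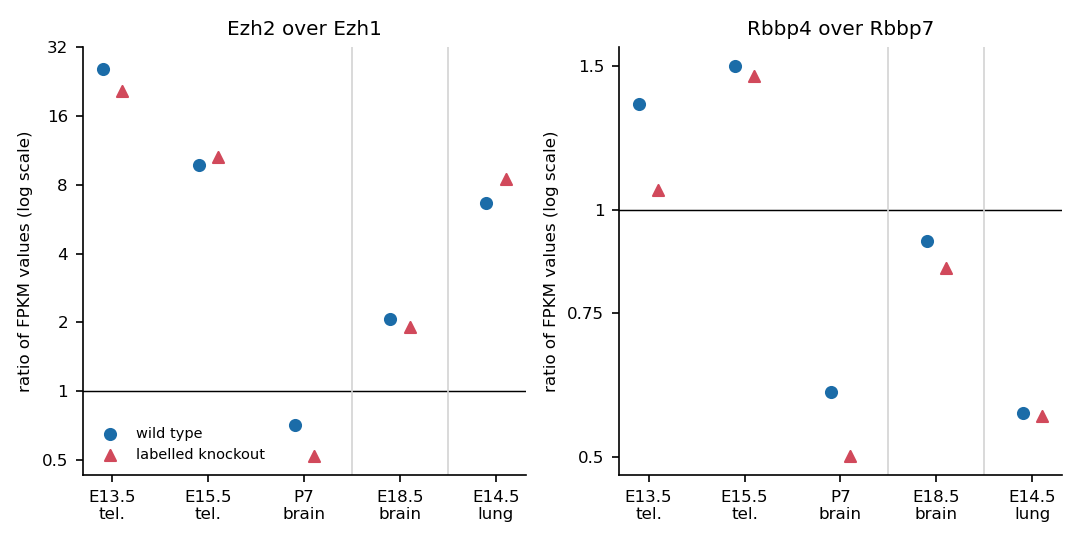
Ratio of FPKM values within each group (log scale) for Ezh2 over Ezh1 (left) and Rbbp4 over Rbbp7 (right), with the 3 separately scaled tables divided by grey lines (tel., telencephalon). Circles are wild type and triangles the groups labelled knockout, 1 value per group. The Ezh2 ratio runs from 25.7 at E13.5 to 0.713 at P7 in wild type, crossing the line at 1, and the Rbbp4 ratio crosses it between E15.5 and P7.

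Deletion of a lincRNA came with small differences in these genes. Of the 45 differences between genotypes (9 genes in 5 comparisons, knockout minus wild type on the log2(FPKM + 1) scale), none was past 1.5-fold. In the E18.5 brain 0.958% of all genes tested were higher and 0.666% lower past that fold, in the E14.5 lung 1.41% and 0.808%, at E13.5 1.55% and 5.52%, at E15.5 0.200% and 0.274%, and at P7 2.08% and 2.24%. With so few genes past the fold anywhere, a count of 0 among 9 is near the background and is no result about these genes. The size of the 45 differences was under 0.1 in 33, at least 0.2 in 6 and at least 0.3 in 3. With 1 value per group, whether any of them exceeds the spread between animals cannot be said.

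**Figure D3:**
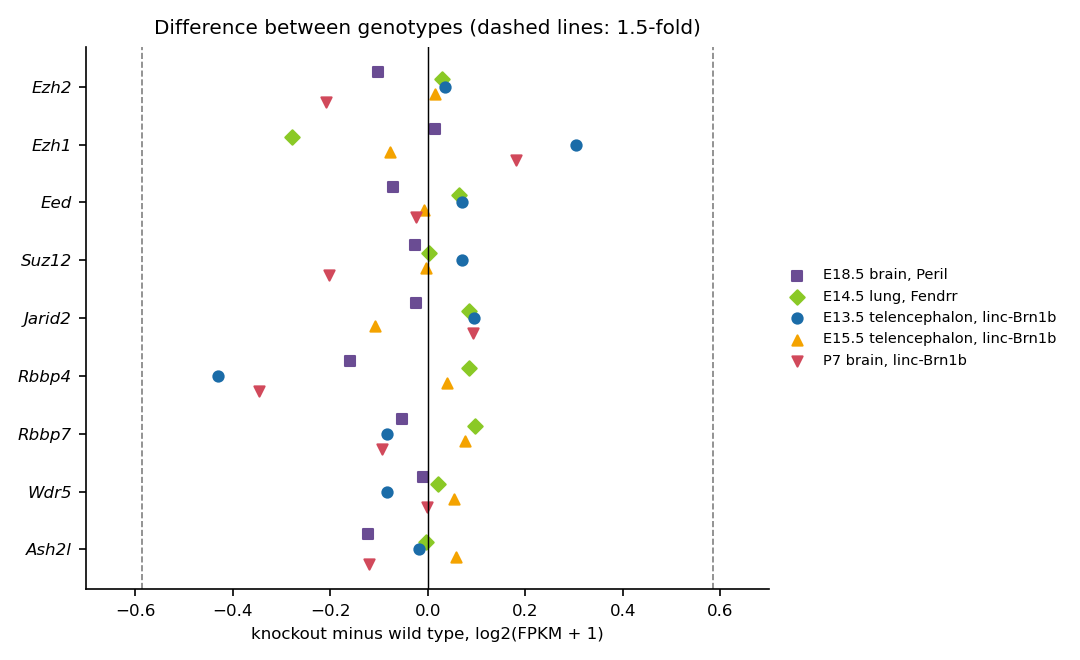
Difference between genotypes for each gene, labelled knockout minus wild type on the log2(FPKM + 1) scale, 1 point per comparison, with dashed lines at a 1.5-fold difference. No point lies past the lines, and the farthest is Rbbp4 at E13.5 (-0.43).

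Rbbp4 had the largest of the 45, at E13.5, where 8.62% of all genes were lower still. All genes differed by a median size of 0.175 at E13.5 and 0.043 at E15.5, so sizes are not equally marked across comparisons. At E13.5 Rbbp4 was at 110.4 FPKM in wild type and 81.6 FPKM in linc-Brn1b-/- (-0.43). It was at 87.7 and 90.2 FPKM at E15.5 (0.04) and at 45.3 and 35.4 FPKM at P7 (-0.35). It was thus lower in the knockout at 2 of the 3 ages and about level at the third. In the E18.5 brain its level was 61.0 FPKM in wild type against 54.6 FPKM in those labelled knockout (-0.16), and in lung at 102.5 and 108.8 FPKM (0.08). Its paralog Rbbp7 stayed between -0.09 and 0.10 in all 5 comparisons.

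After the E13.5 and P7 differences of Rbbp4, the largest was that of Ezh1 at E13.5, and Ezh1 had no common direction. It was at 4.51 FPKM in wild type against 5.80 FPKM in the knockout at E13.5 (0.30), at 8.28 and 7.80 FPKM at E15.5 (-0.08) and at 8.35 and 9.60 FPKM at P7 (0.18). In lung it was at 9.27 FPKM in wild type against 7.47 FPKM in the Fendrr knockout (-0.28), and in the E18.5 brain at 10.4 and 10.5 FPKM (0.01). At E13.5, 11.9% of all genes were higher still than Ezh1. In lung 4.94% of all genes were lower still, the smallest such share among the 45 differences. Ezh1 was the lowest-expressed of the 9 in lung and at both embryonic ages of the linc-Brn1b strain.

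Ezh2 differed little between genotypes. Its differences were 0.04 at E13.5, 0.02 at E15.5, 0.03 in lung (61.9 FPKM in wild type against 63.1 FPKM in the knockout) and -0.10 at E18.5 (21.6 and 20.0 FPKM). The largest was at P7, where it was at 5.96 and 5.02 FPKM (-0.21). Suz12 gave -0.20 at P7 and lay between -0.03 and 0.07 in the other comparisons, with 33.6 and 33.7 FPKM in lung and 17.2 and 16.9 FPKM at E18.5. Eed, the subunit that reads the mark, stayed between -0.07 and 0.07, with 28.4 and 29.8 FPKM in lung and 10.9 and 10.3 FPKM at E18.5.

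Jarid2 and the Trithorax pair also stayed close to 0. Jarid2 lay between -0.11 and 0.10, with 14.4 and 15.4 FPKM in lung and 14.8 and 14.6 FPKM at E18.5. Its lowest value was at E15.5, where 6.83% of all genes were lower still. Wdr5 lay between -0.08 and 0.05, with 35.9 and 36.5 FPKM in lung and 23.4 and 23.3 FPKM at E18.5. Ash2l lay between -0.12 and 0.06, with 44.9 and 44.8 FPKM in lung and 40.2 and 36.9 FPKM at E18.5. The medians of the 9 genes were 0.036 at E13.5, 0.016 at E15.5, -0.093 at P7, 0.029 in lung and -0.053 at E18.5, beside 0.057, 0.005, 0.012, 0.004 and 0.003 over all genes. In the E18.5 brain 8 of the 9 were below 0 in the libraries labelled knockout, by 0.16 at most. Below 0 were also 7 of the 9 at P7, 4 at E13.5, 4 at E15.5 and 2 in lung. These counts were not tested.

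Markers of dividing cells and of other cell types differed in some of the same comparisons. At P7, 15 of 15 proliferation markers were lower in the knockout, 9 of them past 1.5-fold, with a median difference of -0.67 and a summed level of 176.1 FPKM in wild type against 107.6 FPKM in the knockout. Top2a, the topoisomerase of dividing cells, was the lowest at -1.08. Zic1 (-1.23), En2 (-0.86) and Cbln1 (-0.59), the hindbrain and cerebellum markers that passed the filter, were lower too, with a summed list of 80.9 and 41.5 FPKM. Of 5 oligodendrocyte markers 4 were lower past 1.5-fold, with the largest difference in Mbp, the myelin protein gene (-0.85), and of 6 radial glia markers 3, with Pax6 at -1.34. Other markers went the other way within 1.5-fold. Hes5 of the radial glia list was at 0.22, and all 5 microglia and macrophage markers and 5 of 6 telencephalon markers were above 0. Whether any of these markers take part in the P7 values of Ezh2, Suz12 and Rbbp4 was not tested.

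At E13.5 the proliferation markers differed less, with a median of -0.19, none past 1.5-fold, and summed levels of 1314 and 1138 FPKM in wild type and knockout. Of the 3 erythroid markers that passed the filter, Hbb-bh1, an embryonic globin gene, was at -1.27 and Hba-x, another, at -0.73. Alas2 went the other way, at 0.16, and the erythroid list summed to 149.8 and 90.4 FPKM. All 5 microglia and macrophage markers were lower, 2 of them past 1.5-fold (C1qa at -0.91 and C1qb at -0.61), with sums of 18.4 and 12.1 FPKM, and all 4 endothelial markers were lower within 1.5-fold, with sums of 38.9 and 29.4 FPKM. At E15.5 the summed choroid plexus list was at 238.6 FPKM in wild type against 2.04 FPKM in the knockout, with Ttr, its transthyretin gene, at -6.61, while the 9 genes lay between -0.11 and 0.08. In lung 5 of 5 cardiac markers were higher in the knockout, Nppa, the atrial natriuretic peptide gene, by 4.32, and the list summed to 286.3 and 896.3 FPKM, while proliferation markers had a median of 0.00. In the E18.5 brain 14 of 15 proliferation markers were lower in the libraries labelled knockout, 1 of them past 1.5-fold (Mcm6, a subunit of the replication helicase, -0.82). The part of these markers in the values of the 9 genes was not tested.

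Few other genes of the same pathways were past 1.5-fold between genotypes, as was true of all genes, of which 0.200% to 5.52% were past it in a direction. Of the 5 or 6 PRC2 accessory subunits that passed the filter, 20 subunits of PRC1 (the Polycomb complex that binds the PRC2 mark), 16 Trithorax partners, 2 demethylases of lysine 27 and 17 members of other complexes that hold RBBP4 or RBBP7, none was past 1.5-fold in lung, at E15.5 or at E18.5. At E13.5 the 1 gene past it was Kdm6a, an X-linked demethylase of the PRC2 mark, at 0.70, in the comparison whose wild-type group held the Y-linked signal. Kdm6a was at 0.27 in lung, -0.13 at E15.5, -0.26 at P7 and -0.07 at E18.5. The part of sex in these values was not tested. At P7 there were Cbx6, a PRC1 subunit that reads the mark, at 0.74, where 2.08% of all genes were higher, and Chaf1b, a subunit of the chromatin assembly factor that also contains RBBP4, at -0.88. Within 1.5-fold before rounding, the lowest at E13.5 were Dpy30, a COMPASS subunit, at -0.58 and Sin3b at -0.52. Counts this small are near the background and are no result about these lists.

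Between E15.5 and P7 most of the pathway was lower with the core. Of 20 PRC1 subunits, 12 were lower past 1.5-fold in wild type and 12 in the knockout, with medians of -0.72 and -0.73. Cbx2, the reader subunit known from embryonic tissue, was lowest at -2.42 and -2.74. Cbx6 was the 1 subunit higher in each, at 0.77 in wild type and 1.56 in the knockout.

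Among the Trithorax and COMPASS partners 11 of 16 were lower in wild type and 12 of 16 in the knockout, with medians of -0.97 and -0.84. Mll1, a methyltransferase of lysine 4, was lowest at -1.53 and -1.17, and Wdr82 was nearest to level at -0.14 and -0.21. Of the 6 PRC2 accessory subunits that passed the filter 4 were lower in wild type and 3 in the knockout. Mtf2, which recruits PRC2 to CpG-rich DNA, was at -1.46 and -1.32, and Phf1, its relative, at 0.11 and 0.01.

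The enzymes that remove the PRC2 mark were lower too, Kdm6b at -2.16 and -1.71 and Kdm6a at -0.69 and -0.81. Of 17 members of the other complexes that hold RBBP4 or RBBP7, 14 were lower in each genotype, with medians of -1.26 and -1.31. Sap30 of the SIN3 complex was lowest at -2.48 and -2.81, and Mta3 was level at -0.03 and 0.05. These counts stand against the 27.2% and 27.4% of all genes lower in this step.

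Markers of dividing cells and of several cell types differed in the same step. Proliferation markers were lower past 1.5-fold for 14 of 15 in wild type and 15 of 15 in the knockout, with medians of -2.03 and -2.80 and summed levels of 658 and 677 FPKM at E15.5 against 176.1 and 107.6 FPKM at P7. Of 6 radial glia markers 5 were lower past 1.5-fold in wild type and 4 in the knockout. Nes, the progenitor intermediate filament, was lowest at -2.92 and -3.36, and Fabp7 highest at 0.45 and -0.58. Summed levels of the 6 were 1154 and 1249 FPKM at E15.5 against 1039 and 587.2 FPKM at P7. All 5 astrocyte markers were higher in each genotype, and Mbp was higher by 5.41 in wild type and 4.46 in the knockout. The telencephalon markers were all lower, with summed levels of 413 and 425 FPKM at E15.5 and 85.2 and 96.6 FPKM in the whole P7 brain. The part of cell makeup in the levels of the 9 genes was not tested.

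In the early step, within the telencephalon, proliferation markers were lower past 1.5-fold for 15 of 15 in wild type (median -1.05) and 12 of 15 in the knockout (median -0.85). In this step 8.06% and 7.56% of all genes were lower and 8.67% and 10.4% higher in wild type and knockout. Of the PRC1 subunits 2 of 20 were lower in each genotype, Cbx2 (-0.73 and -0.79) and Pcgf5 (-0.76 and -0.72). Cbx7, another PRC1 reader, was higher in the knockout (0.62). None of the 16 Trithorax partners passed 1.5-fold in wild type, and in the knockout Dpy30 did, at 0.62. Of the demethylases X-linked Kdm6a did in the knockout, at -0.60, in the step where the Y-linked signal appears in that genotype. Of the 17 genes whose complexes share RBBP4 or RBBP7, 6 were lower in wild type and 4 in the knockout, where 1 was higher (Sin3b, 0.80). Chaf1a, of the chromatin assembly factor, was the lowest of them, at -1.02 and -0.98. Lcor was the only PRC2 accessory subunit past 1.5-fold, at -0.71 and -0.72.

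**Figure D4:**
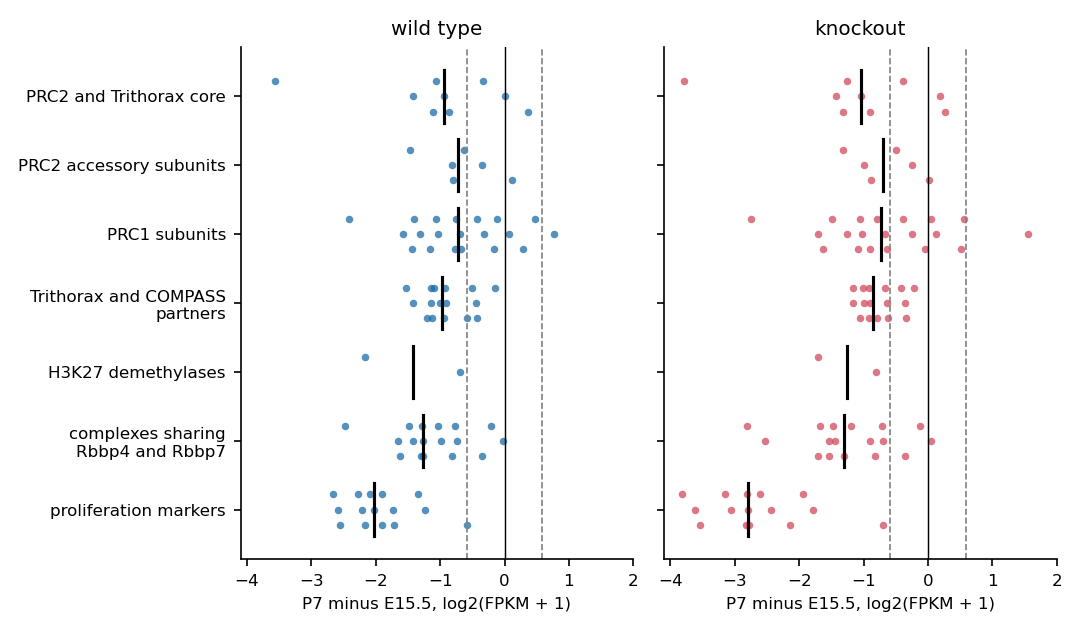
Difference between P7 and E15.5 on the log2(FPKM + 1) scale for the genes of each list, wild type (left) and knockout (right). Each point is 1 gene that passed the filter, spread vertically for legibility, bars are medians and dashed lines mark 1.5-fold. Medians of all lists lie below 0, from the PRC2 accessory subunits (-0.71 and -0.69) to the proliferation markers (-2.03 and -2.80), and Ezh2 is the lowest point in the top row.

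The genes whose pattern across the 6 linc-Brn1b groups came nearest to that of Ezh2, by root mean square difference of centred log2(FPKM + 1) values among 12619 genes, were Sox11 (0.149), Eomes (0.163), Fam60a (0.185), Phf21b (0.207) and Igf2bp2 (0.219). Sox11 is a transcription factor of immature neurons and Eomes one of intermediate progenitors. Sox11 was at 196.5 and 244.9 FPKM at E13.5 in wild type and knockout and at 14.7 and 9.67 FPKM at P7, and Eomes at 57.2 and 78.8 FPKM at E13.5 and 3.74 and 3.24 FPKM at P7. Both, like Ezh2, were highest at E13.5 and lowest at P7 in each genotype. They were picked for likeness to Ezh2 over these same 6 groups, so the shared order is no separate result.

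The nearest to Ezh1 were Wbscr17 (0.039), Atcay (0.040), AK191425 (0.044), Taok3 (0.044) and Sobp (0.045). Atcay, a gene of the nervous system, was at 44.8 and 51.6 FPKM at E13.5, 72.3 and 70.1 FPKM at E15.5 and 77.1 and 85.9 FPKM at P7. Like Ezh1 it was higher in the knockout at E13.5 and P7 and slightly lower at E15.5. Atcay was picked for likeness to Ezh1 over these same groups, so this too is no separate result. The 6 groups were scaled together and come from 2 kinds of tissue, and likeness over 6 values is a description only.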

How the data were processed

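RNA-seq libraries were made from total RNA by the study with the TruSeq kit; per the labels and methods, paired-end reads were aligned to mm9 with TopHat2 and quantified with Cufflinks 2.0.2 (submitters' processing notes) and Cuffdiff2. The authors deposited FPKM values, 1 per group pooled over its libraries, in 3 tables scaled separately. Columns with per-library values numbered 0. The tables also hold the authors' own comparisons (fold changes, test statistics, p- and q-values), which were not used. Rows without a gene name (45, 14 and 14) were left out.

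Differences were taken as log2(FPKM + 1) of the second group minus the first, within a table, over genes with a mean of at least 1 FPKM, and called at 1.5-fold. A pseudocount understates the change of low genes. The calling step was run on values in which FPKM + 1 was changed by exactly 2-fold in chosen genes, without noise. Its outcome was fixed in advance, so it checks the arithmetic only. No statistical test was run on the data, since each group has 1 value. Named were the 9 genes, from each list the highest and lowest gene and any past 1.5-fold where up to 5 were, the 5 genes nearest to Ezh2 and to Ezh1 with a symbol that is no Gm, RIKEN, linc or XLOC name, the targeted lincRNAs, and the sex-linked genes as a group. The 9 genes and the lists were chosen with earlier results of these data known. Alternatives changed the pseudocount, filter, fold and centring. Copies in the genome were aligned with minimap2 2.31, with limits set after first alignments were seen. Python 3.11.15 and pandas 2.3.3 were used.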

Additional observations from a re-analysis of the deposited data

How the results depend on the processing

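Each group has 1 pooled value, so no replicate could be left out. No paired analysis was possible because the deposited columns hold 1 value per group and carry no replicate number. The counts of the 9 genes past the fold and their medians did not move with a pseudocount of 0.1 FPKM or with none. Centring on the median of all genes moved 1 median, that of the wild-type step from E15.5 to P7, to -0.839. With a lower fold (5 to 4), 1 gene was lower in the linc-Brn1b knockout at E13.5 and 1 at P7, 5 were lower between E13.5 and E15.5 in wild type, 4 lower and 1 higher in the knockout, and 1 was higher between E15.5 and P7 in wild type. Over all genes that fold was passed by 12.3% and 8.55% lower in the first 2, by 18.3% lower in the early wild-type step, by 21.1% lower and 21.5% higher in the knockout, and by 32.3% higher in the late wild-type step. With a fold of 2, the early step had 0 genes higher and 0 lower in wild type and 0 lower in the knockout. Over all genes, 2.15% were higher and 1.99% lower in wild type and 1.48% were lower in the knockout. The early counts of 0 are therefore near the background and are no result about the 9 genes. The late step had 4 lower in wild type, where 12.8% of all genes were lower. It had 5 lower in the knockout, where the share of all genes was slightly larger. No direction was reversed past the fold: among 81 differences of single genes, none changed sign with another pseudocount, 2 did with centring, of size 0.036 at most, and the largest shift was 0.245, for Ezh2 between E15.5 and P7 in the knockout without a pseudocount. The share of all genes past 1.5-fold depended on the filter: between E15.5 and P7 it was 23.5% to 27.4% in a direction with the mean of at least 1 FPKM, at most 13.9% with no filter and 20.4% to 29.5% at 5 FPKM. The depth is unknown, and what it limits cannot be given.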
